A study of Mus musculus with 6 samples.

Results

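Cytosolic ribosomal protein genes encode the protein part of the ribosome outside mitochondria. Their members were chosen by symbol alone: Rpl (large subunit) or Rps (small subunit) with a number and, optionally, a, x, y or l and further digits, or Rplp0, Rplp1, Rplp2 or Rpsa, with the S6 kinases left out. The rule found 85 of the 24424 genes in the count table, 52 of the large and 33 of the small subunit, and 84 of the 23393 genes in a second, normalized table. The 2 tables shared 83 of the symbols. The symbol Rpl32l was matched only in the count table; its older symbol Gm6251, which the rule does not match, has a row in the normalized table. Rps4y2 of the normalized table is an older symbol of Rps4l. In GENCODE M21, an annotation of the mm10 mouse genome, both Rpl32l and Rps4l are processed pseudogenes, and every other member is a protein-coding gene.

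The study measured RNA of regulatory T cells (Tregs), CD4 T cells that restrain immune responses and depend on the transcription factor Foxp3, after removal of the transcription factor Bcl11b. Tregs had been sorted from mouse spleen and peripheral lymph nodes, and 6 RNA-seq libraries were compared. The 2 WT libraries, at steady state, carry the strain label Bcl11bF/F (floxed alleles), in which no Cre is named. The 2 KO libraries, at steady state, carry the strain label Bcl11bF/WT Foxp3YFP-Cre +/-, in which Cre is driven by Foxp3, and the genotype label KO. The 2 KO EAE libraries carry the same strain label and come from mice at EAE (experimental autoimmune encephalomyelitis, an induced model of multiple sclerosis). The KO strain label names 1 floxed and 1 WT allele, which the genotype label KO does not match, so KO is used below as the label gives it. A WT library at EAE is not analysed here, and the age and sex of the mice and the day of EAE are not given in the labels. No label says that the replicates of a group are separate animals, so a p-value reflects how far these samples scatter, and that scatter may be technical.

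Each ribosome holds 1 copy of nearly every ribosomal protein, and growing cells make these proteins in step with ribosomal RNA. Their messengers start with a run of pyrimidines, the 5′ terminal oligopyrimidine tract, through which the growth-controlling kinase complex mTORC1 and the RNA-binding protein LARP1 set how strongly they are translated. T cells raise ribosome production when they are activated. Mammalian genomes also hold many processed pseudogenes of these genes, copies made from spliced messengers, and a short read from the gene can match such a copy as well.

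The sequences of a member and of a copy differ at few bases. Rpl37 (chr15:5116645-5119140, plus strand, mm10), a large subunit protein, differed from its copy Rpl37rt (chr5:115102923-115110268) at 1 of 291 coding bases. Rps26 (chr10:128624534-128626747, minus strand), a small subunit protein that sits beside the messenger's exit, differed from its copy Gm6654 (chr6:146647241-146647588) at 9 of 345. The 60 coding bases of each gene that hold the most differences are shown from the GENCODE M21 transcripts, because the reads assigned to these genes turn on them; capitals mark the bases that differ.
Rpl37: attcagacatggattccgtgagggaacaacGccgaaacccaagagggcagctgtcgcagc
Rpl37rt: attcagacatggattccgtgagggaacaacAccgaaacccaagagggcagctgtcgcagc
Rps26: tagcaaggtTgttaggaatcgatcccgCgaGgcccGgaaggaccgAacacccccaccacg
Gm6654: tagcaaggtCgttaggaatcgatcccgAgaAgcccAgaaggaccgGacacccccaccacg
Of the 85 members, 78 had at least 1 such copy elsewhere in the annotation (95% identity or more over at least 80% of the coding part), with a median of 5 copies and up to 57. The values of these 78 members are therefore uncertain where counting could have split reads between a gene and its copies.

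The promoters of named members with a call reported below are shown as a description, and their part in those calls was not tested. They include Rpl13 and Rpl35, which rose, beside members that fell. RefSeq promoter windows (GRCm38.p6) matched 64 of the 85 members with 76 entries, among them 7 of the members named for a call: Rps16, Rps19, Rps24, Rpl13, Rpl18, Rpl35 and Rpl37. Each line gives 40 bases before and 20 bases after the annotated start. Capitals mark the longest run of C and T within 20 bases of that start. Where a gene had several entries, the entry with the longest such run was the one printed, so the lines favour long runs.
Rps16 (chr7:28350649-28350708, plus strand): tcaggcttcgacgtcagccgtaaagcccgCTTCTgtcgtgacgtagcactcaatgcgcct
Rps19 (chr7:24884873-24884932, plus strand): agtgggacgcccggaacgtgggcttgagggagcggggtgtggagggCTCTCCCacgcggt
Rps24 (chr14:24490638-24490697, plus strand): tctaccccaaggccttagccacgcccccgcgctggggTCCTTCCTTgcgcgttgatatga
Rpl13 (chr8:123102310-123102369, plus strand): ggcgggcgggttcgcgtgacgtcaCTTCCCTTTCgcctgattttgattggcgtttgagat
Rpl18 (chr7:45718031-45718090, plus strand): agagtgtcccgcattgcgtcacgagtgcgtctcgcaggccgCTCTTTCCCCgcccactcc
Rpl35 (chr2:39005112-39005171, minus strand): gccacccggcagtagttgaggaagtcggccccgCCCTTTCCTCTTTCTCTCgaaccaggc
Rpl37 (chr15:5116573-5116632, plus strand): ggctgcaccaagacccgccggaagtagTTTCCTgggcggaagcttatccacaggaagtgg
The longest run had 18 bases in Rpl35 and 5 bases in Rps16. A run of 8 or more C or T in these 40 bases was found in 32 of the members' 76 promoter windows (42.1%) and in 16.0% of all 32851 windows. The motif CCGGAAG, the core of sites bound by ETS-family factors, was present on either strand of the whole 300-base window in 27 of 76 (35.5%), against 8.86% of all windows. The motif TATAAA was present on either strand in 8 of 76 (10.5%), against 13.6% of all windows. A match of letters is a description and not a bound site.

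The count table held 14663542 to 16904312 reads on genes per library. Levels are given as CPM, a gene's reads per 1000000 reads of its library, scaled by TMM (trimmed mean of M-values) factors, and 3 reads equalled 0.177 to 0.205 CPM before that scaling. Bcl11b, the targeted gene, read 420 and 425 CPM in WT, 371 and 370 in KO and 404 and 278 in KO EAE, and its change in KO did not pass the test (log2 change -0.19, SE 0.17, edgeR adjusted p = 0.527). In the normalized table it was lower in both KO libraries, at 6746 and 5211 against 10517 and 11371 in WT, which did not pass the test either (limma adjusted p = 0.410). In the authors' deposited table its log2 fold change was -0.80, with an adjusted p of 7.9e-08. All 8 Treg markers were read in each library, and their summed level was 1881 to 1960 CPM in WT, 1380 to 1422 in KO and 1387 to 1502 in KO EAE. Of them 5 were called lower in KO against WT, Foxp3 among them (211 and 206 CPM in WT, against 165 and 155 in KO, log2 change -0.38, edgeR adjusted p = 0.025, lost at 0.11 to 0.18 without any 1 WT or KO library). All 10 myeloid markers were read too, and summed to 248 to 258 CPM in WT, 1373 to 1672 in KO and 1219 to 1482 in KO EAE. B cell markers (5 of 5 read) summed to 40.2 to 45.2, 79.0 to 119 and 70.0 to 138 CPM in the same order, and NK cell markers (4 of 4) to 29.3 to 35.7, 95.9 to 108 and 71.3 to 140. Of 6 erythroid markers, the 4 at 0 in every library were globin genes, and the sum was 2.08 to 3.07, 14.4 to 31.5 and 15.5 to 28.0 CPM. These lists were higher in KO and KO EAE than in WT, apart from the Treg list, which was lower; their part in the results below was not tested.

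Ribosomal protein genes took a smaller share of reads in KO than in WT in the count table. They made up 4.60% and 4.32% of gene reads in the 2 WT libraries, 3.25% and 3.07% in KO, and 3.66% and 3.48% in KO EAE. Every KO library was below every WT library, and both KO EAE libraries lay between the KO and the WT values. The KO mean was 3.16% ± 0.13 (SD, n = 2) and the WT mean 4.46% ± 0.19 (SD, n = 2), a ratio of 0.709. The 95% Wilson interval of the share in WT replicate 1 was 4.59 to 4.61%, so counting error is small beside these gaps. The exact two-sided permutation test gave p = 0.333, the smallest value that 2 libraries against 2 allow. Both subunits moved in that direction: large subunit genes took 2.55% and 2.42% of reads in WT and 1.84% and 1.87% in KO, and small subunit genes took 2.05% and 1.91% in WT and 1.41% and 1.21% in KO. In bulk RNA, fewer cells with a given level and less RNA per cell cannot be told apart.

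**Figure D1:**
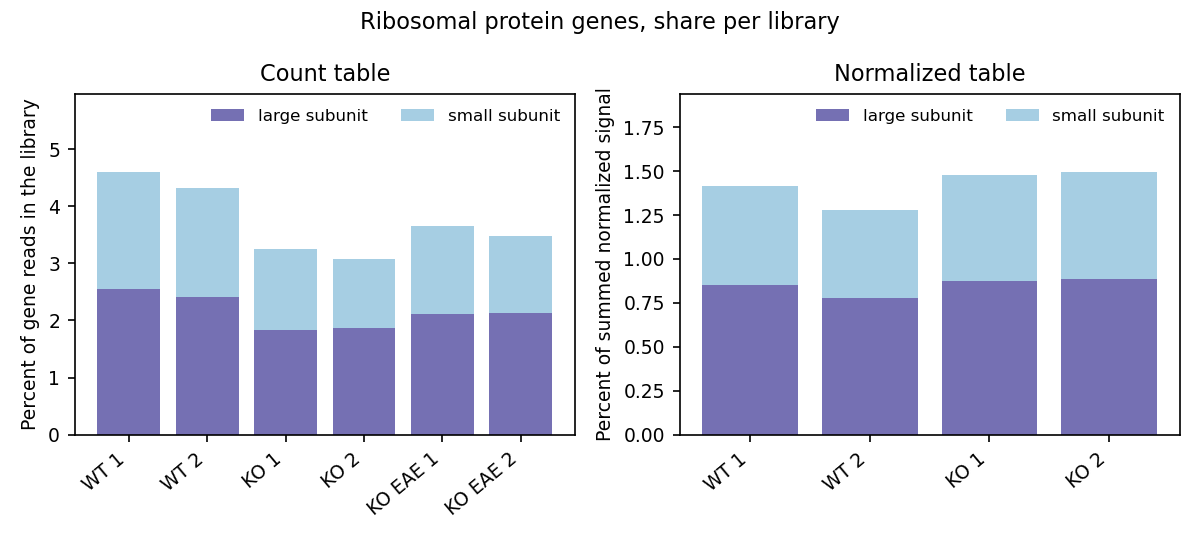
Stacked bars give the share of each library taken by large subunit and small subunit ribosomal protein genes, in percent of gene reads (count table, 6 libraries) and in percent of summed normalized signal (normalized table, 4 libraries). In the count table both KO libraries (3.25% and 3.07%) stand below both WT libraries (4.60% and 4.32%), and in the normalized table both KO bars (1.48% and 1.49%) stand above both WT bars (1.42% and 1.28%).

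The balance of the subunits was compared as the ratio of their reads. The log2 ratio of large to small subunit reads was 0.32 and 0.34 in WT, 0.38 and 0.63 in KO and 0.45 and 0.66 in KO EAE. Both KO values exceeded both WT values, by 0.18 on average, with p = 0.333 by the exact permutation test (two-sided, n = 2 per group). The KO and KO EAE values overlapped. Rpsa, a small subunit protein also known as the laminin receptor precursor, had the highest WT mean of the small subunit genes (3272 and 2011 CPM), and without it the KO ratios were 0.56 and 0.78 and the WT ratios 0.56 and 0.50, which overlap. Without Rps14, Rpl10a and Rpl3, the members with the largest differences between replicates and an alternative chosen after the data were seen, the ratios were 0.29 and 0.21 in WT and 0.35 and 0.54 in KO, which do not overlap.

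Gene by gene, 82 members could be tested in the count table (49 large, 33 small). Rpl26, a large subunit protein with 6 copies, had no read in any library, and Rpl10l and Rpl3l, paralogs known from testis and from muscle, read at most 0.123 and 0.707 CPM. Between KO and WT, 12 of the 82 fell and 2 rose at an adjusted p under 0.05 in edgeR's quasi-likelihood test, with Benjamini-Hochberg adjustment over all 14548 genes tested. Calls of a fall thus covered 14.6% of members, against 3.46% of all genes, and calls of a rise 2.44%, against 9.41% of all genes. The median log2 change of the members was -0.45, against -0.01 over all genes, and 69 of the 82 were below 0. In 50 members both KO libraries were below both WT libraries and in 6 both were above, 61.0% and 7.32% of members, against 32.5% and 32.7% of all genes. Large subunit genes (2 higher, 7 lower of 49, median -0.45) and small subunit genes (0 higher, 5 lower of 33, median -0.48) had near-equal medians. The count of calls rested on having both libraries of each group: it was 6 without WT replicate 1, and 7 when WT replicate 2, KO replicate 1 or KO replicate 2 was left out instead. Of the 14 calls, 4, 2, 3 and 5 were kept in these fits in turn. The fit without KO replicate 1 had 4 calls of a rise and 3 of a fall, whereas the other 3 fits had 2 of a rise and 4 to 5 of a fall. Leaving out KO EAE replicate 1 raised it to 31 and leaving out KO EAE replicate 2 to 28.

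**Figure D2:**
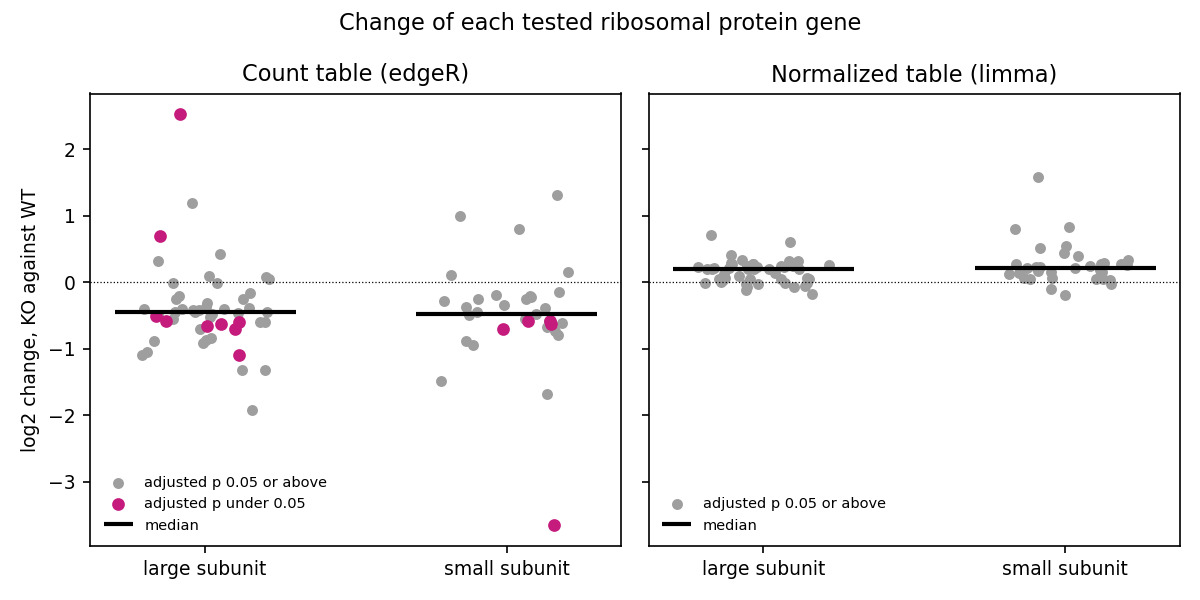
Each point is the log2 change, KO against WT, of a tested ribosomal protein gene, by subunit, from edgeR on the count table and from limma on the normalized table; horizontal bars are medians. In the count table the medians are -0.45 and -0.48 with calls marked on both sides of 0, and in the normalized table they are 0.20 and 0.22 with no gene at an adjusted p under 0.05.

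Among small subunit genes, Rps16 fell the most. Rps16 (ENSMUSG00000037563.15, chr7:28350652-28353155, plus strand, mm10) encodes a protein of the subunit head whose tail reaches the P-site tRNA. It read 1499 and 1885 CPM in WT, 89.6 and 180 in KO, and 77.5 and 281 in KO EAE. The WT libraries lay far above all 4 others, while the replicates of KO and of KO EAE differed by 2.01 and 3.62 times. Its log2 change in KO was -3.65 (SE 0.66, edgeR adjusted p = 0.017), and in KO EAE against WT -3.24 (SE 0.65, adjusted p = 0.032). The call in KO was lost without WT replicate 2 (adjusted p = 0.056), without KO replicate 1 (0.142) and without KO replicate 2 (0.086).

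Rps19 (chr7:24884371-24889806), which is needed to mature the small subunit RNA and is mutated in Diamond-Blackfan anaemia, read 703 and 693 CPM in WT, 431 and 425 in KO and 543 and 508 in KO EAE. The 3 groups did not overlap, with KO EAE between the others. Its log2 change was -0.71 in KO (SE 0.09, edgeR adjusted p = 0.0054) and -0.41 in KO EAE (SE 0.09, adjusted p = 0.049), both against WT. Rps24, another Diamond-Blackfan gene, read 1048 and 1058 CPM in WT, 629 and 738 in KO and 543 and 582 in KO EAE, so the KO EAE libraries were the lowest. Its changes against WT were -0.62 in KO (edgeR adjusted p = 0.024) and -0.91 in KO EAE (adjusted p = 0.0074).

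The large subunit genes that fell included Rpl32, Rpl36, Rpl37, Rplp1, Rpl27 and Rpl23a. Rpl32 read 437 and 405 CPM in WT, 267 and 251 in KO and 316 and 279 in KO EAE. Its log2 changes against WT were -0.70 in KO (edgeR adjusted p = 0.0071) and -0.50 in KO EAE (adjusted p = 0.031). Rpl36 read 369 and 328 CPM in WT, against 227 and 217 in KO, and fell by 0.65 (edgeR adjusted p = 0.027). Rpl37 fell by 0.63 (edgeR adjusted p = 0.010), from 465 and 451 to 280 and 312 CPM.

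Rplp1, an acidic protein of the stalk that recruits elongation factors, read 345 and 337 CPM in WT, 206 and 244 in KO and 220 and 172 in KO EAE. Both KO groups were below WT, with log2 changes of -0.60 (edgeR adjusted p = 0.044) and -0.80 (adjusted p = 0.020). Rpl23a, at the exit tunnel where the signal recognition particle docks, read 1244 and 1257 CPM in WT, against 844 and 917 in KO (log2 change -0.51, edgeR adjusted p = 0.040). The 3 called members that the naming rule did not pick, Rps9, Rps7 and Rpl27, are named after their values were seen: they fell by 0.59, 0.58 and 0.58 on the log2 scale (edgeR adjusted p = 0.023, 0.041 and 0.018). The call of Rps9 was lost without any 1 of the 4 WT and KO libraries, that of Rps7 without WT replicate 2 or either KO library, and that of Rpl27 without either WT library or KO replicate 1 (edgeR adjusted p 0.056 to 0.22). Rpl18 was called in KO EAE against WT (log2 change -1.50, SE 0.31, edgeR adjusted p = 0.036), from 557 and 958 CPM in WT to 373 and 340 in KO and 328 and 206 in KO EAE. In KO its change was -1.09 with an adjusted p of 0.075 in edgeR, and KO EAE against KO did not pass the test (adjusted p = 0.654). Among the falls in KO, the calls of Rpl36, Rplp1 and Rpl23a were lost when any 1 of the 4 WT and KO libraries was left out. Those of Rpl37 and Rps24 were lost without WT replicate 1, WT replicate 2 or KO replicate 1, that of Rpl32 without WT replicate 1 or either KO library, and that of Rps19 without either WT library; their adjusted p then ran from 0.050 to 0.26 in edgeR, with the direction kept.

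Rpl13 and Rpl35 went the other way. Rpl13 (ENSMUSG00000000740.12, chr8:123102350-123105244, plus strand), a large subunit protein with 7 copies, read 206 and 186 CPM in WT, 1095 and 1172 in KO and 1181 and 1054 in KO EAE. Replicates agreed within 1.12 times in each group, and the WT libraries lay well below the other 4. Its log2 change was 2.53 in KO (5.79-fold, SE 0.13, edgeR adjusted p = 0.00012) and 2.51 in KO EAE (SE 0.13, adjusted p = 0.00018), and both calls held without any 1 library. Rpl35 (ENSMUSG00000062997.6, chr2:39001580-39005624, minus strand), next to the exit tunnel, read 238 and 220 CPM in WT, 369 and 377 in KO and 403 and 464 in KO EAE. It rose by 0.70 in KO (edgeR adjusted p = 0.0077) and 0.92 in KO EAE (adjusted p = 0.0034), on the log2 scale and against the same WT libraries. Its call in KO was lost without WT replicate 2 (adjusted p = 0.084) and without KO replicate 2 (0.053).

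**Figure D3:**
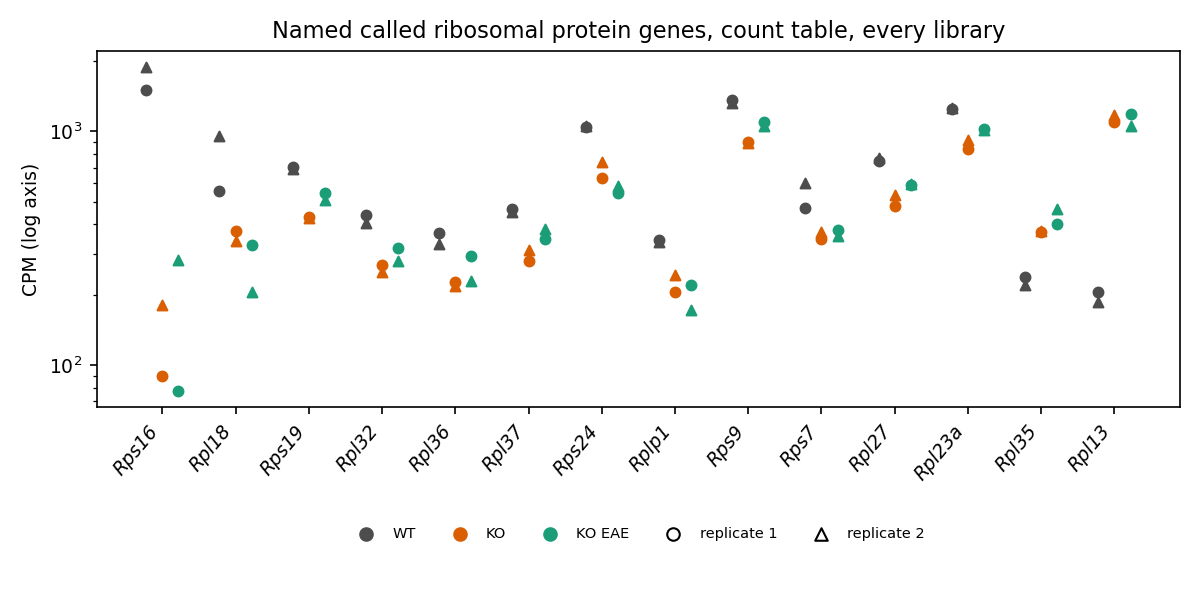
Points give the CPM (log axis) of the called ribosomal protein genes named in the text in each of the 6 libraries, coloured by group and shaped by replicate, in the order of the log2 change in KO. Rps16 has the widest gap between WT (1499 and 1885) and KO (89.6 and 180), and Rpl13 and Rpl35 are the genes whose KO and KO EAE points lie above WT.

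In KO EAE against WT, a comparison that shares the WT libraries with the one above, 6 of 82 members fell (7.32%, against 1.95% of all genes) and 2 rose (2.44%, against 7.41%), with 9.36% of all genes called in either direction. The members that fell were Rps16, Rpl18, Rps24, Rplp1, Rpl32 and Rps19, and those that rose were Rpl13 and Rpl35. The median log2 change was -0.25, against -0.01 over all genes. Both KO EAE libraries were below both WT libraries in 34 members (41.5%, against 30.7% of all genes) and above them in 5 (6.10%, against 29.9%). The number of calls, 8, fell to 4 without WT replicate 1 and to 3 without KO replicate 1 or without KO replicate 2, through the shared estimate of spread, and rose to 20 without KO EAE replicate 1. All 6 falls were lost in edgeR on leaving out at least 1 library: those of Rpl32 and Rps19 without any library but KO EAE replicate 1 (adjusted p 0.070 to 0.27), that of Rps16 without either WT or either KO library (0.070 to 0.099), that of Rplp1 without the same 4 (0.050 to 0.097), that of Rps24 without either WT library (0.053 and 0.067), and that of Rpl18 without WT replicate 2, either KO library or KO EAE replicate 2 (0.099 to 0.12). With the reads of copies added, Rps19 was not called (adjusted p = 0.057).

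Between KO EAE and KO no member was called by edgeR (smallest adjusted p = 0.397), where 0.0137% of all genes were called. An unadjusted edgeR p under 0.05 was found for 13 of the 82 members, against 1378 of all 14548 genes. DESeq2 called 1 member and 167 of all genes. The median log2 change was 0.18, against 0.00 over all genes, and 66 of 82 members were above 0. Both KO EAE libraries exceeded both KO libraries in 33 members (40.2%, against 17% of all genes) and were below them in 5 (6.10%, against 21.3%). The share of reads was higher in KO EAE than in KO by 0.409 percentage points, with p = 0.333 by the exact permutation test (two-sided, n = 2 per group).

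The level of the members in WT spanned a wide range. Per kilobase of exon, the highest levels were those of Rps3a1 (1878 CPM per kilobase), Rpl23a (1477), Rps16 (1336), Rpl19 (1316), Rps6 (1256) and Rps23 (1003). The median tested member was at 198. Exon length was the union over all annotated transcripts of a gene, and the order depends on that choice. For Rps24 the union had 6256 bases and the transcript used to find copies 519, whereas for Rps3a1 both had 977. Rps6, the substrate of the S6 kinases downstream of mTORC1, read 1746 and 2237 CPM in WT, 1845 and 754 in KO and 1333 and 1187 in KO EAE, with 1 KO library inside the WT range. Rps3a1 read 2315 and 1355 CPM in WT, against 1514 and 1722 in KO, and Rps23 1423 and 1119 in WT and 1082 and 742 in KO. Rpl19 read 1665 and 1024 CPM in WT, against 789 and 1080 in KO. WT and KO overlapped in Rps3a1, Rpl19 and Rps6. The WT replicates of Rps3a1 and Rpl19 differed by 1.71 and 1.63 times, more than the step between any neighbours in this order.

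At the low end stood Rpl30 (0.851 CPM per kilobase in WT), Rpl39l (2.62), Rpl34 (3.06) and Rps4l (5.83). Rpl30 and Rpl34 encode core proteins of the large subunit, yet Rpl30 read 2.69 and 2.45 CPM in WT, against 2.27 and 3.07 in KO, and Rpl34 8.07 and 8.08 in WT and 5.90 and 5.94 in KO. Both were also low in the normalized table, at 4.31 to 11.5 and 22.6 to 53.5 normalized reads per library. Rpl30 has 12 near-identical copies and Rpl34 has 5, and their level in these tables cannot be told apart from reads left unassigned.

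Paralog pairs among the members were compared within a library. Rpl22, which binds RNA and is needed for alpha-beta T cell development, and its paralog Rpl22l1 read at near-equal CPM in the count table. Rpl22 read 138 and 136 in WT and 108 and 122 in KO. Rpl22l1 read 145 and 155 in WT and 119 and 141 in KO. Per kilobase of the exon union, WT stood at 47.0 for Rpl22 and 75.5 for Rpl22l1. In the normalized table Rpl22 was the higher in WT, at 1026 and 1116 against 763 and 565 for Rpl22l1. Rps27, a zinc-binding small subunit protein, read 11.9 and 11.3 CPM in WT, against 8.17 and 7.64 in KO, below its p53-responsive paralog Rps27l at 23.6 and 21.6 in WT and 24.3 and 26.1 in KO. Per kilobase of the exon union this was 11.1 for Rps27 and 27.7 for Rps27l in WT. The union had 1043 and 816 bases in turn, and the transcripts used to find copies 345 and 499, so this gap depends on the length used. Of the 50-base windows of the whole transcript, untranslated ends included, Rps27 shared 98.7% with another gene's transcript, and Rps27l 22.4%. In the normalized table Rps27 read 16.5 and 11.9 in WT and 46.3 and 42.1 in KO, the largest log2 change of any member there (1.59, SE 0.22, limma adjusted p = 0.332). Rpl39, which lines the exit tunnel, stood at 241 CPM per kilobase in WT and its paralog Rpl39l, known from testis, at 2.62.

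Rps4x stood at 204 CPM per kilobase in WT and Rps4l at 5.83. Rpl7 read 961 and 197 CPM in the 2 WT libraries, 148 and 160 in KO and 362 and 659 in KO EAE, whereas its paralog Rpl7l1, an assembly-linked homolog, stayed between 93.5 and 101 CPM in all 6 libraries. Rpl7l1 had 1 copy and shared 9.03% of the windows of its whole transcript, and Rpl7 had 7 copies and shared 53.3%. Rpl36a read 230 and 49.1 CPM in WT, against 102 and 49.2 in KO, and Rpl36al, which lies outside the symbol rule, 47.4 and 152 in WT and 39.7 and 51.5 in KO. With all 6 libraries, edgeR called no gene of these pairs in the 3 comparisons of the count table. Without WT replicate 1, Rpl36al was called lower in KO (log2 change -1.72, edgeR adjusted p = 0.0038).

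Replicates of a group disagreed more for ribosomal protein genes than for other genes in the count table. Among genes averaging 50 CPM or more, 10 of 75 members differed by more than 2-fold between the WT libraries (13.3%, against 1.06% of 6143 genes), 12 between the KO libraries (16%, against 0.602%) and 7 between the KO EAE libraries (9.33%, against 1.11%). In the normalized table no member of 68 differed by more than 2-fold in either group. The largest gaps were in Rps14, Rpl10a and Rpl3. Rps14, of the small subunit platform, read 613 and 58.2 CPM in KO EAE, 588 and 302 in WT and 118 and 160 in KO. Rpl10a, the protein of the L1 stalk, read 98.3 and 860 in WT, 185 and 199 in KO and 433 and 742 in KO EAE. Rpl3, at the peptidyl transferase centre, read 155 and 1345 in KO EAE, 341 and 1121 in KO and 1161 and 1600 in WT. In the group with the largest gap, the higher library was replicate 1 for Rps14 and replicate 2 for Rpl10a and Rpl3. In the normalized table the same 3 genes differed by less: Rps14 read 6109 and 5975 in WT, Rpl10a 1586 and 1212, and Rpl3 10070 and 9334.

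**Figure D4:**
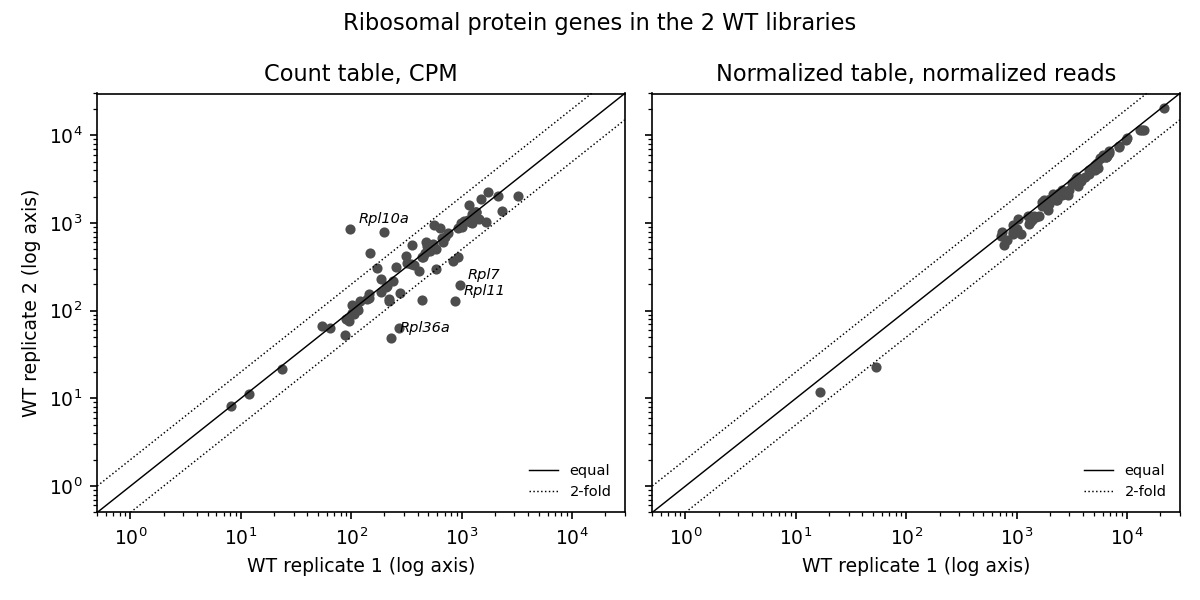
Each point is a ribosomal protein gene tested in both tables, placed by its value in WT replicate 1 and WT replicate 2 on log axes, as CPM in the count table and as normalized reads in the normalized table; the solid line marks equal values and the dotted lines a 2-fold gap. Outside the dotted lines lie 10 members averaging 50 CPM or more by the count table, among them Rpl10a (98.3 and 860), and no member averaging 50 or more by the normalized table.

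The normalized table, which holds WT and KO libraries only, gave another direction. In it the members made up 1.42% and 1.28% of the summed signal in WT and 1.48% and 1.49% in KO, so both KO libraries were above both WT libraries (exact two-sided permutation p = 0.333, n = 2 per group). Of 79 members tested by limma on log2(value + 1), none was called, where 0.0819% of 12208 genes were called. An unadjusted limma p under 0.05 was found for 7 members, against 1235 of the 12208 genes. On the whole reads recovered from this table, edgeR called no member and 0.0979% of genes. The median log2 change was 0.20, against 0.01 over all genes, and 66 of 79 were above 0. Both KO libraries were above both WT libraries in 46 members (58.2%, against 23.5% of genes) and below in 4 (5.06%, against 22.3%). The log2 ratio of large to small subunit signal was 0.59 and 0.62 in WT and 0.53 and 0.54 in KO, the opposite order to the count table.

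For the genes called in the count table, Rps16 read 1692 and 1746 normalized reads in WT and 1956 and 1954 in KO (log2 change 0.19, limma adjusted p = 0.651). Rpl13 read 14086 and 11537 in WT and 13367 and 12025 in KO (log2 change -0.01, limma adjusted p = 0.990). Rps19 read 6421 and 5677 in WT and 7500 and 6794 in KO, higher in both KO libraries. None of these 3 genes was called in the normalized table, and Rps16 and Rps19 lay on the other side of WT there.

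In the authors' deposited table of KO against WT, 2 of 76 members with an adjusted p were past 0.05 and higher, and none was lower, where 1.71% of 10396 genes were higher and 1.64% lower. They were Rps27l, with a log2 fold change of 0.67 and an adjusted p of 0.0096, and Rps25, with 0.48 and 0.042, in the authors' deposited table. The median over the 82 members with a log2 fold change in the authors' deposited table was 0.16. Rps27l read 727 and 702 normalized reads in WT and 1235 and 1319 in KO, which did not overlap (limma adjusted p = 0.356). Rps25, a small subunit protein used by some viral internal ribosome entry sites, read 1702 and 1547 in WT and 2278 and 2488 in KO (limma adjusted p = 0.458). In the count table, Rps25 read 88.0 and 52.8 CPM in WT, against 65.6 and 52.4 in KO. Rps27l was higher in both KO libraries there too, at 24.3 and 26.1 CPM against 23.6 and 21.6 in WT. Its log2 change there was 0.16 and did not pass the test (SE 0.14, edgeR adjusted p = 0.524). Both KO libraries were above both WT libraries in 32.7% of all genes of the count table. For Rps25 the groups overlapped in the count table.

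For some copies the reads came close to those of the gene in the count table but not in the normalized table; these copies, like the exceptions below, are named after their values were seen. Rpl37rt had 7020, 7186, 4748, 4351, 5052 and 5558 reads in WT, KO and KO EAE in turn, beside 7439, 7362, 4928, 4576, 5415 and 5924 on Rpl37. That is 93.3 to 97.6% of the gene's reads in the count table, against 1.89 to 2.87% in the normalized table. Gm6654 had 72.1 to 88.6% of the reads of Rps26, and Gm15421 66.4 to 79.5% of those of Rpl22l1, against at most 1.34% for either in the normalized table. Rps19-ps3 had 17.7 to 21.4% of the reads of Rps19, and at most 0.171% in the normalized table. Rps19-ps3 and Rpl14-ps1 were called lower in KO, with log2 changes of -0.67 and -0.39 (edgeR adjusted p = 0.011 and 0.042), 2 of the 5 pseudogene rows tested. Rps19 itself was called lower (log2 change -0.71, edgeR adjusted p = 0.0054), and Rpl14 was not (-0.38, edgeR adjusted p = 0.058). Rpl14-ps1 had 88.5 to 93.9% of the reads of Rpl14 in the count table. Whether these copies changed apart from their genes was not tested. In contrast, Rps27rt, Rpl34-ps1 and Gm15772, copies of Rps27, Rpl34 and Rpl26, had no read in the count table. Rpl31-ps12 ran from 0.311 to 12.5% of Rpl31 across the 6 libraries of the count table and was at 0 in the normalized table, and Rps15a-ps6 ran from 0.532 to 13.3% of Rps15a, against 1.22 to 1.90%. For other copies the normalized table had the larger percent: BC004004 had 20.9 to 31.3% of the reads of Rpl21 in the count table and 35.7 to 53.3% in the normalized table, and Wdr89 1.81 to 7.50% and 7.07 to 15.4% of those of Rplp2.

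**Figure D5:**
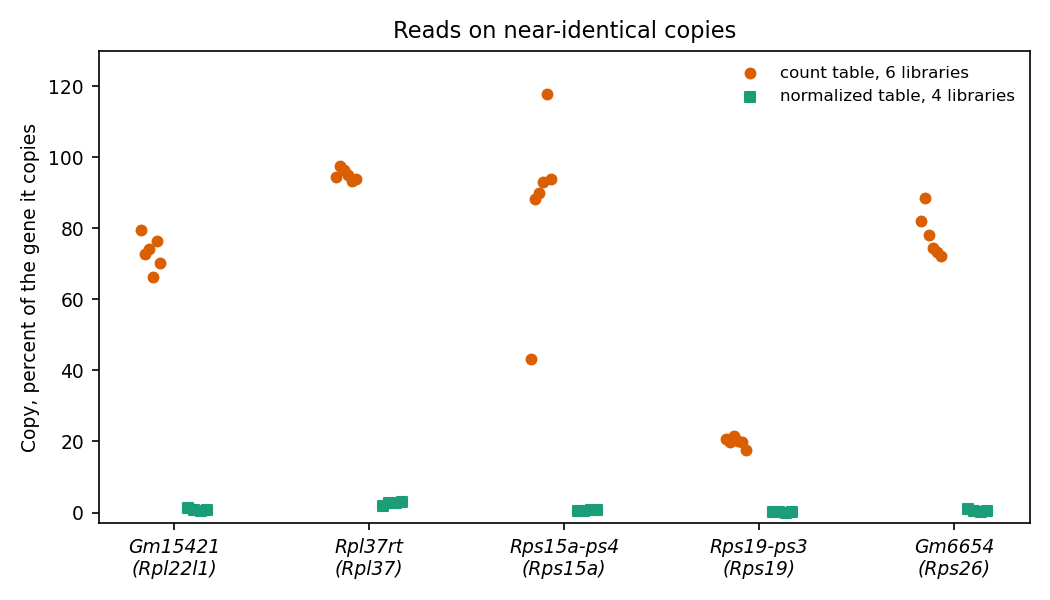
Points give the value of a near-identical copy as a percent of the gene it copies (in brackets), for the 6 libraries of the count table and the 4 of the normalized table. The copies of Rpl37, Rps26, Rpl22l1 and Rps15a mostly lie between 66% and 118% in the count table, with 1 library at 43.1% for Rps15a, and all 5 copies lie under 3% in the normalized table.

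Adding the reads of 14 copy rows to their 13 genes before the fit, an alternative chosen after the data were seen, left all 14 calls in place in KO against WT and gave 15 in total. The 6 tested members with no copy had a median log2 change in KO of -0.15 and none was called, those with 1 to 3 copies -0.53 (5 lower of 26), those with 4 to 7 copies -0.54 (2 higher and 6 lower of 30), and those with 8 or more -0.44 (1 lower of 20). The median of a member's largest ratio between replicates was 1.22 with no copy, and 1.52, 1.55 and 1.35 in the other classes in turn. Across the 82 members Spearman's rho between the number of copies and the largest gap between replicates was -0.06. With the share of whole-transcript windows that match another gene, rho was 0.09. Both are given as descriptions over genes that share the same libraries.

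The lists of genes that work beside the ribosomal proteins are read against the 12.9% of all genes called between KO and WT, 9.41% higher and 3.46% lower. Of 42 ribosome assembly factors tested between KO and WT, 1 rose and 1 fell: Wdr12, of the PeBoW complex that matures the large subunit, rose by 0.38 on the log2 scale (edgeR adjusted p = 0.045), and Npm1, the nucleolar chaperone nucleophosmin, fell by 0.49 (edgeR adjusted p = 0.029). None of 40 translation initiation and elongation factors was called by edgeR (median -0.08, smallest adjusted p = 0.074). Of 19 other messengers with a 5′ terminal oligopyrimidine tract, 2 fell, Npm1 and Naca (-0.57, edgeR adjusted p = 0.047), a subunit of the complex that binds nascent chains. Of 22 regulators of ribosomal protein output, Deptor, an inhibitor of mTOR, rose by 1.89 (edgeR adjusted p = 0.0059), and Mxd1 and Mxi1, antagonists of Myc at its target genes, fell by 0.83 and 0.47 (adjusted p = 0.0062 and 0.033). Of 14 targets of p53 and nucleolar stress, Plk2, a p53-induced kinase, fell by 1.83 (edgeR adjusted p = 0.020). The 77 mitochondrial ribosomal protein genes, a separate set that builds the mitochondrial ribosome, had a median of -0.05 and no call (edgeR smallest adjusted p = 0.056), and their median in the normalized table was 0.27. Of the ribosome parts outside the symbol rule, Fau, which encodes a ubiquitin-like fusion with Rps30, read 1193 and 1171 CPM in WT, against 106 and 619 in KO, and none of the 5 rows tested was called (edgeR smallest adjusted p = 0.197). Among these rows is Rps15a-ps4, a processed pseudogene of Rps15a. These lists, like the members, are described by their counts and medians, and no list was tested as a set.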

How the data were processed

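RNA had been extracted from sorted Tregs and made into libraries with the NEBNext Ultra II RNA kit, per the labels' protocols. HISAT2, HTSeq, DESeq2 and the mm10 genome are named in the submitters' processing notes; not given in the sources used here are versions, annotation, strand use and the treatment of multiply mapped reads. For the 6 libraries the authors deposited raw integer counts of reads per gene, and, for 4 of them, a table of WT and KO values divided by size factors, a normalized signal. In the latter, 100% of values above 0 were whole multiples of 1 read (tolerance 0.02 reads), which gave recovered counts of 16884434 to 25335011 per library; edgeR called 12 genes on them. Another table deposited by the authors gives a mean signal, log2 fold changes with standard errors, test scores, p-values and adjusted p-values. Tests were made within a table only. Rows that name no gene (25 in the count table, at most 0.217% of reads, and 27, at most 0.284%) were left out.

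Counts were fitted with edgeR 4.0.16 in R 4.3.3 (filterByExpr with a minimum count of 10, TMM, quasi-likelihood test, 1 coefficient per group, 6 libraries, 3 residual degrees of freedom, threshold 0.05). Normalized values were tested with limma 3.58.1 on log2(value + 1), a scale that understates changes of low genes, for genes at 10 or more in at least 2 libraries; DESeq2 1.42.0 was an alternative. Both fits were also run on simulated data. The simulated spread was equal for all genes and smaller than that estimated here (coefficient of variation 0.178 in the count table). That run therefore does not show how the fits perform on these data. Copies were found with blastn 2.17.0 against GENCODE M21 transcripts. Intervals and the limit of 3 reads cover counting error only. Antisense and overlapping genes cannot be told apart without strand.

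Members and lists were chosen with earlier results of these data known. Named members were the 6 largest called rises and falls in each comparison, the 6 highest and 4 lowest WT levels per kilobase, the paralog pairs and the 3 with the largest gap between replicates, with Bcl11b and Foxp3 as label checks; of other lists at most 4 called genes were named. The values of 1 called member are not reported here.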

Additional observations from a re-analysis of the deposited data

How the results depend on the processing

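Between KO and WT, 14 ribosomal protein genes were called in the count table. DESeq2 called 28, a fit of only the 2 groups compared 28, and fits without 1 replicate 6 to 31. All 14 remained called under DESeq2, in the fit of only those 2 groups and with DESeq2's size factors in edgeR. In KO EAE against WT, DESeq2 called 17, the fit of only those 2 groups 4, and fits without 1 replicate 3 to 20. In KO EAE against KO, DESeq2 called 1. Over all genes, DESeq2 called 2422 in KO against WT, 2213 in KO EAE against WT and 167 in KO EAE against KO. The edgeR fit called 1873, 1362 and 2 of all genes in turn. For the other fits no count over all genes is given, so their counts of members have no background beside them. Leaving out a replicate leaves 1 library in its group, which is then assumed to vary like the other groups. The median log2 change kept its sign in every fit: without 1 replicate it ran from -0.52 to -0.39 in KO, from 0.12 to 0.24 in KO EAE against KO, from -0.32 to -0.14 in KO EAE against WT, and from 0.068 to 0.28 in the normalized table. As a mean log2 CPM of members in place of a share of reads, the differences were -0.41 in KO, 0.15 in KO EAE against KO and -0.25 in KO EAE against WT, on another scale. The difference of the large to small subunit log2 ratio between KO EAE and KO (0.05) turned without KO replicate 1 or KO EAE replicate 2 and ran from -0.076 to 0.18. In the normalized table the near-zero change of Rpl13 ran from -0.15 to 0.14 without 1 replicate, and that of Rps9 from -0.033 to 0.11. Where no construction is named, the cause was not tested.

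Deviations of same-numbered libraries correlated over genes at 0.01 between WT and KO, -0.09 between WT and KO EAE, 0.20 between KO and KO EAE, and 0.03 in the normalized table. Each group gives a single difference between replicates, so these values cannot decide whether same-numbered libraries were paired. With the replicate number as a block, 14 members were called in KO (10 of the same 14), 7 in KO EAE against WT, 0 in KO EAE against KO and 0 in the normalized table.

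The main limits are 2 libraries a group, the 2 deposited tables that give opposite directions for the members under the same library names, and the near-identical copies of 78 of 85 members. Depth is not limiting for most members, which read far above 3 reads. Rpl26 had 0 reads in the count table, and Rpl10l and Rpl3l had at most 2 and 11 in a library. Rpl30, Rpl39l and Rpl32l were tested on 40 to 45, 20 to 64 and 31 to 72 reads per library. Rpl34, Rps4l and Rps27 were tested on 87 to 132, 57 to 198 and 103 to 190.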
